A study of Mus musculus with 30 samples.

Results

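The genes described here encode the proteins of the cytosolic ribosome. They were chosen by name from the annotation of the arrays: a probe set was taken where it carried a single gene symbol made of Rpl or Rps and a number, with an optional letter or l ending, or the symbol Rplp0, Rplp1, Rplp2 or Rpsa, while S6 kinases and pseudogenes were left out. This gave 100 probe sets of 46 genes, out of 45037 probe sets and 18193 named genes in all. Of the 46 genes, 43 were bright enough to test (22 of the large and 21 of the small subunit). The other 3 were Rpl39l and Rpl3l, paralogues known from testis and striated muscle, and Rps16, and their probe sets had median intensities of 9.53, 11.2 and 9.30.

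RNA came from whole lungs of C57BL/6 mice, 1 animal on each of 30 arrays. Juvenile mice aged 21 days and adult mice aged 16 weeks were each left untreated as controls, ventilated mechanically for 2 h (MV; 15 mL/kg tidal volume at 80 breaths per minute, 30% oxygen, end-expiratory pressure 2 cmH2O), given a 30 min aerosol of E. coli lipopolysaccharide (LPS; 20 mL at 0.1 mg/mL) and then left to breathe for 2 h, or given LPS and then ventilated (LPS+MV). Each of the 8 groups held 4 animals, except juvenile MV and juvenile LPS+MV with 3. The series asks how the response of the lung to these insults depends on age. No study period, anaesthesia or sham ventilation is named for the controls, and the labels give no sex.

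Each ribosome joins a small and a large subunit, and nearly all of their proteins are present in 1 copy, so cells make these proteins in matched amounts. Their mRNAs are among the most abundant and stable of the cell. Most begin with a run of pyrimidines, the 5′ terminal oligopyrimidine (TOP) motif, through which mTORC1 and the RNA-binding protein Larp1 control whether the mRNA is translated or stored. Much of the control of this family therefore acts after transcription and is not seen in mRNA levels.

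The start sites of 5 members are shown because these genes carry the differences described further on and differ in the pyrimidine run at the annotated start. Each sequence runs 5′ to 3′ on the strand of the gene, from 50 bases before to 30 bases after the start (RefSeq, build GRCm38.p6), and capitals mark the run of C and T at the start. They are Rps10 (chr17:27635215-27635294, minus strand), Rps18 (chr17:33955636-33955715, minus strand), Rplp2 (chr7:141447601-141447680, plus strand), Rps6 (chr4:86857338-86857417, minus strand) and Rps25 (chr9:44407664-44407743, plus strand).
Rps10: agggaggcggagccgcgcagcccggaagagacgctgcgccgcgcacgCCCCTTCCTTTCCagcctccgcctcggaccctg
Rps18: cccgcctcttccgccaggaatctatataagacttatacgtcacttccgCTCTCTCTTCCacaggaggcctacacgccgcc
Rplp2: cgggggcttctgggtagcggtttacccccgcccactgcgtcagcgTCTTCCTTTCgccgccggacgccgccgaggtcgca
Rps6: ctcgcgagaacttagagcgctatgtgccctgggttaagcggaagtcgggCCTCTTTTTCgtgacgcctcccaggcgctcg
Rps25: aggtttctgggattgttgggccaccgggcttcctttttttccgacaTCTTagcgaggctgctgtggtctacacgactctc

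The run at the annotated start is 13 bases long in Rps10, 11 in Rps18, 10 in Rplp2, 10 in Rps6 and 4 in Rps25. In Rps25 a longer stretch of C and T lies further upstream. It was not counted, because only runs within 5 bases of the start were. The promoter table, which covers 250 bases before to 50 after each start, held 48 promoters of 40 of the 46 genes; it did not list Rpl7, Rpl8, Rps14, Rps20, Rps29 and Rps4l. A run of at least 8 C or T bases within 5 bases of the start was found in 17 of the 48 (35.4%), against 9.38% of all 32851 promoters. The median run was 5 bases, against 3. On either strand, CCGGAAG, a sequence bound by ETS factors such as GABP, lay in 20 promoters (41.7%, against 8.86%). AAGATGG, which resembles the core of the YY1 motif, lay in 7 (14.6%, against 6.34%). These are matches of letters and not tested sites.

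The deposited values are probe set intensities that the authors had normalized between arrays. The test used log2(intensity + 32), and a fold change below is a difference on that scale ± its standard error (SE) in limma, adjusted over all 13089 genes tested. A difference passed at an adjusted p below 0.05. Each gene is represented by its brightest probe set, and 30 of the 43 chosen probe sets are of kinds that may also bind related transcripts, which matters in a family with many pseudogenes. Of the 43, 34 had a mean intensity above 1000 and 9 lay below 500 (Rps4l, Rpl37, Rps6, Rpl27a, Rps25, Rpl39, Rpl14, Rps27 and Rpl12). Intensities of different probe sets depend on the probes, so no order of RNA amounts between genes is read from them.

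Markers of the lung were present on every array, with intensities of 18124 to 22163 for Sftpc of alveolar type II cells, 7119 to 12681 for Ager of type I cells and 907 to 1805 for Pecam1 of endothelium. The upper quartile of intensity was 89.1 on adult MV replicate 3 and 98.8 to 111 on the other arrays. The mean array median of the adult MV group lay 0.14 below that of its control on the log2 scale, against shifts of -0.065 to -0.017 in the other treated groups, so results for that group depend on scaling. Adult controls lay 0.048 above juvenile controls by the same measure. Xist, transcribed from the inactive X chromosome, was high on 4 of 4 adult MV and 3 of 4 adult LPS+MV arrays and on 0 of 8 adult control and LPS arrays. Its pattern and ventilation overlap in adults. Among juvenile arrays it was high on 1 control, 1 MV and 2 LPS+MV arrays, and on none with LPS alone. In whole lung, fewer cells of a type and less RNA per cell cannot be told apart.

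Under the deposited scaling the ribosomal protein mRNAs varied little between the groups. The exceptions to this are adult MV and the controls of the 2 ages. In adult MV, 22 of the 43 passed as higher once arrays were centred on their medians. Centring raised every gene of that group by about 0.14 against control. The share of all genes passing after centring is not given here, so the 22 are not read as particular to these genes. Between the controls, 25 of 85 single probe sets were higher in adults, beside 12.2% of all, and several belonged to the same gene. The 43 tested genes together made up 4.14% to 5.23% of the summed intensity of the genes tested, with the highest share on adult MV replicate 3. For the 34 genes above 1000, the highest of the 30 arrays exceeded the lowest by a median of 1.28 times, and the median coefficient of variation within a group was 4.85%. The other 808 genes above 1000 gave 1.77 times and 7.82%. The 2 sets were not matched for intensity, so this gap is not read as a trait of the family. Bright probe sets can be compressed near the top of the scale of an array; whether this narrowed the differences was not tested.

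The 3 brightest members are given as examples. Rps29, a zinc-binding protein of the small subunit, had a mean intensity of 10727 and group means from 9968 to 11149. Rpl37a, of the large subunit, had a mean of 9092 and group means from 8405 to 9774. Rps28, of the small subunit, had a mean of 8659 and group means from 8154 to 9108. None of the 3 passed in any of the 12 comparisons. Rps28 fell just short between the controls, higher in adults by 0.10 ± 0.037 (adjusted p = 0.0511) without overlap. Rps29 did so in juvenile LPS+MV against LPS (-0.16 ± 0.056, adjusted p = 0.0511), also without overlap.

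**Figure D1:**
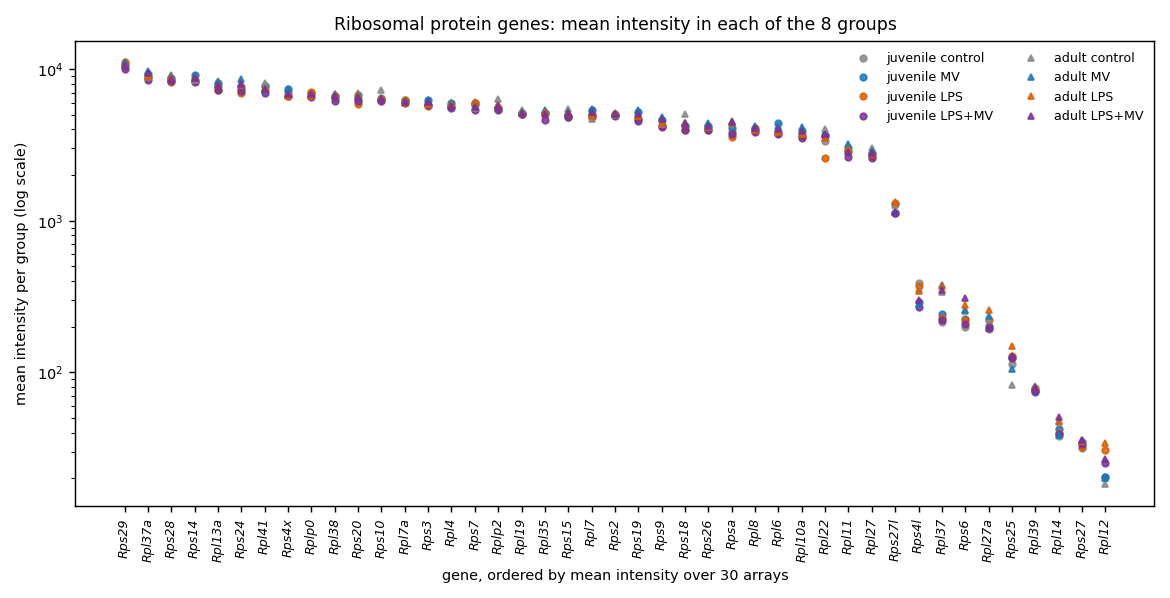
Mean intensity (log axis) of each of the 43 tested ribosomal protein genes in each of the 8 groups, juveniles as circles and adults as triangles, ordered by the mean over 30 arrays. The group means of a gene lie close together for most of the 34 genes above 1000, while those of Rpl22 run from 2607.5 to 4037.7. Among the dim genes, Rps25 and Rpl12 spread widely, whereas the group means of Rpl39 and Rps27 lie close together.

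Across the 12 comparisons, 13 of the 43 genes passed at least once (12 of 42 without Rpl12, a dim gene described below) and 30 never did, among them 26 of the 34 genes above 1000. The median SE of a difference between 4 and 4 animals was 0.059 for these genes and 0.085 over all genes. A bound of 0.5 on the log2 scale (1.41-fold), chosen after the data were seen, held the whole 95% interval of 40 to 42 of the 43 genes in each of the 9 comparisons between groups. The same share over all genes ran from 69.1% in adult LPS+MV against control to 86.9% in adult LPS+MV against LPS.

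**Figure D2:**
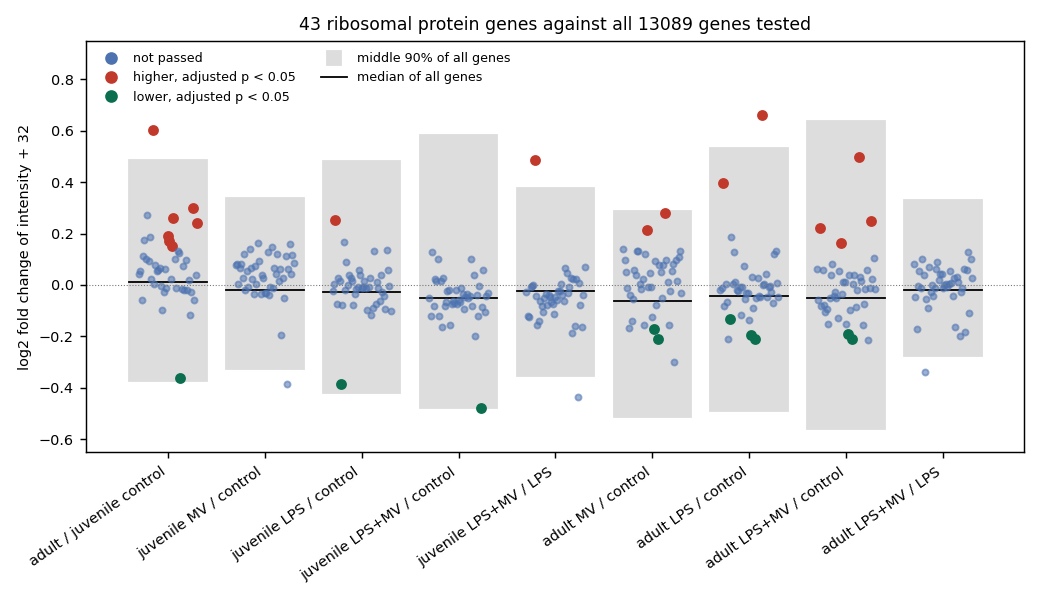
Log2 fold change of the 43 ribosomal protein genes (points, spread sideways by name) in the 9 comparisons between groups, with the middle 90% of all 13089 genes as grey boxes and the median of all genes as a black line. Most points lie inside the boxes; the points that passed at an adjusted p below 0.05 are red (higher) or green (lower), and Rps25 in adult LPS is the highest at 0.66.

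Untreated adult lungs were first compared with untreated juvenile lungs, 4 animals each. A positive sign was seen for 30 of the 43 genes, and 7 passed as higher in adults: Rpl37, Rps6, Rps18, Rpsa, Rplp2, Rps10 and Rps15, while Rps25 passed as lower. These 8 of 43 (18.6%) stand beside 25.2% of all genes (15.1% higher and 10.1% lower). Values of 13 of the 43 did not overlap between the ages, beside 22.1% of all genes. The median difference was 0.06, against 0.01 over all genes, and it was 0.06 for the large and 0.04 for the small subunit. Array medians were 0.048 higher in the adult controls, and with arrays centred on them the members' median was 0.012 and 4 genes passed as higher and 1 as lower.

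Rps10, a small-subunit protein that is ubiquitinated when ribosomes collide, had intensities of 6028, 6676, 6346 and 6623 in juvenile controls and 6998, 7286, 7362 and 7273 in adult controls. All 4 adults lay above all 4 juveniles, and the difference was 0.17 ± 0.055 (adjusted p = 0.0225). Rps18, of the head of the small subunit, read 3962, 4606, 4012 and 4344 in juveniles and 4726, 5218, 5210 and 5129 in adults. Its groups did not overlap either, with a difference of 0.26 ± 0.080 (adjusted p = 0.0169). Rpsa, a small-subunit protein also known as the laminin receptor, read 3798, 3841, 4001 and 3681 in juveniles and 4275, 4517, 4608 and 4758 in adults. The difference was 0.24 ± 0.071 (adjusted p = 0.013), again with no overlap. Rps15 was higher by 0.15 ± 0.051 (adjusted p = 0.0314) without overlap. Rplp2, of the stalk that recruits elongation factors, was higher by 0.19 ± 0.067 (adjusted p = 0.0373), and its groups overlapped.

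The largest differences between the ages were in dim genes. Rpl37, Rps6 and Rps25 each had a single kept probe set, with median intensities of 300, 234 and 120. Whether these read the main transcripts was not checked. Rpl37 of the large subunit read 272, 223, 163 and 203 in juveniles and 291, 379, 336 and 357 in adults, a difference of 0.60 ± 0.13 (adjusted p = 0.00103). Rps6, the substrate of the S6 kinases downstream of mTORC1, read 206, 199, 218 and 176 in juveniles and 269, 261, 229 and 254 in adults (0.30 ± 0.079, adjusted p = 0.00587). Both were separated without overlap. Rps25, which several viral internal ribosome entry sites need, went the other way, with 122, 118, 119 and 97.3 in juveniles and 97.9, 65.8, 88.2 and 76.6 in adults. The highest adult array just passed the lowest juvenile one, and the difference was -0.36 ± 0.089 (adjusted p = 0.00351).

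Rpl37, Rps6, Rpsa and Rps25 passed in each of the 17 other settings of this comparison. Rps10 no longer passed without juvenile control replicate 1 (0.14, adjusted p = 0.0926), adult control replicate 3 (0.16, 0.0587) or adult control replicate 4 (0.17, 0.0508), and Rps18 without juvenile control replicate 1 (0.23, 0.063) or 3 (0.24, 0.0515). Rps15 no longer passed without juvenile control replicate 1 (0.11, 0.142) or adult control replicates 2 (0.14, 0.0738) or 3 (0.14, 0.0818), and Rplp2 without juvenile control replicate 2 or 3 or adult control replicate 2, 3 or 4 (0.14 to 0.20, adjusted p from 0.0578 to 0.162). The count was 5 without juvenile control replicate 1 or without adult control replicate 3. Centring ended the calls of Rps10 (0.12), Rps15 (0.10) and Rplp2 (0.14), and so did fitting only the compared groups. Quantile normalization and leaving out the filter each ended those of Rps15 and Rplp2. A term for the Xist pattern ended that of Rplp2, and the probe set without a suffix that of Rps18. Quantile normalization gave 5 higher and 2 lower.

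Markers of other cells differed between the same arrays. Of the neutrophil markers, 7 of 9 were higher in adult controls (median 1.52), with list means of 6.93 to 7.73 in juvenile and 7.54 to 9.81 in adult controls on the log2 scale. Of the lymphocyte markers, 8 of 10 were higher (median 0.49; list means 6.59 to 6.93 against 7.26 to 7.44). Of the proliferation markers, 8 of 10 were lower (median -1.12; list means 7.21 to 8.99 against 6.89 to 7.42), and 6 of 6 red cell markers were lower. Their part in the differences of ribosomal protein mRNA was not tested.

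In juveniles, ventilation alone changed none of the 43 genes, while 10.9% of all genes passed (4.41% higher and 6.45% lower). At an unadjusted p below 0.05 there were 4, and differences ran from -0.38 for Rps4l to 0.16. The median was 0.04, against -0.02 over all genes, and the groups did not overlap for 1 gene, beside 19.2% of all genes. Juvenile MV replicate 3 stood below the other 2 arrays of its group for the members as a whole. On it the 34 genes above 1000 averaged 12.25 on the log2 scale, against 12.47 and 12.45, and the 43 genes made up 4.29% of the summed intensity, against 4.83% and 4.72%. Without it, 3 genes passed as higher.

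LPS alone in juveniles changed 2 of the 43 genes, 1 up (Rpl12, with the limit given below) and 1 down, beside 22.9% of all genes (9.58% higher and 13.3% lower). For 3 of the 43 the LPS and control arrays did not overlap, beside 22% of all genes. Rpl22, a large-subunit protein needed for the development of alpha-beta T cells, fell from 2581, 3443, 3718 and 3762 in controls to 1872, 2318, 3082 and 3158 with LPS. The groups overlapped through control replicate 1, and the difference was -0.39 ± 0.13 (adjusted p = 0.0285). LPS replicate 1 was the lowest array of all 30 for this gene. The call was lost without LPS replicate 1 (-0.24, adjusted p = 0.165), LPS replicate 2 (-0.34, 0.0788), or control replicate 2 (-0.37, 0.0646), 3 (-0.33, 0.0866) or 4 (-0.33, 0.0876). It was also lost when only the compared groups were fitted and when the probe set without a suffix was used.

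Rpl12, at the base of the stalk, rose with LPS in juveniles by 0.25 ± 0.073 (adjusted p = 0.0129). Its probe set is dim, with 21.0, 23.8, 20.3 and 16.7 in controls and 27.7, 27.1, 39.6 and 28.1 with LPS, and it lay above the median of its own array on 17 of 30 arrays. It entered the test largely through the LPS groups, so counts are also given without it, and here 0 rose and 1 fell of the remaining 42. Without LPS replicate 3 the difference was 0.19 (adjusted p = 0.0761).

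LPS followed by ventilation in juveniles changed 1 of the 43 genes, while 31.3% of all genes passed (10.8% higher and 20.5% lower). There was no overlap for 5 of the 43, beside 32.2%. The gene was Rps4l, a paralogue of the X-linked Rps4x, with 511, 355, 323 and 363 in controls and 297, 301 and 208 with LPS+MV. It fell by 0.48 ± 0.16 (adjusted p = 0.019) without overlap. It did not pass without control replicate 1 (-0.35, adjusted p = 0.0915) or LPS+MV replicate 3 (-0.33, 0.159), which held the highest and the lowest value. With a term for the Xist pattern its adjusted p was 0.0625, and it did not pass when only the compared groups were fitted.

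When juvenile LPS+MV was compared with juvenile LPS, Rpl22 alone of the 43 passed, beside 15.4% of all genes (5.97% higher and 9.45% lower). Separate ranges were seen for 7, beside 26%. With LPS+MV, Rpl22 read 3517, 3446 and 3813, each above all 4 LPS arrays, and the difference was 0.49 ± 0.14 (adjusted p = 0.0166). It did not pass without LPS replicate 1 (0.34, adjusted p = 0.0742) or LPS+MV replicate 3 (0.44, 0.0746). Nor did it pass with the mean over probe sets, the probe set without a suffix or only the compared groups. This comparison shares its LPS arrays with the one against control, so the 2 calls of Rpl22 are not independent.

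In adults, ventilation alone moved 4 of the 43 genes, 2 up (Rps25, Rpl7) and 2 down (Rps18, Rps10), beside 31.5% of all genes (7.17% higher and 24.3% lower). The groups did not overlap for 8, beside 30.5%. Rpl7, of the large subunit, read 4973, 4595, 4562 and 4602 in controls and 5447, 5395, 5363 and 5523 with ventilation. The ranges were separate and the rise was 0.21 ± 0.054 (adjusted p = 0.00376), which passed in all 17 other settings. The 4 ventilated arrays read 6097, 6146, 6679 and 6757 for Rps10 and 4159, 4270, 4412 and 4656 for Rps18, all below the adult controls given above. The falls were -0.17 ± 0.055 (adjusted p = 0.0185) for Rps10 and -0.21 ± 0.080 (adjusted p = 0.044) for Rps18.

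The count for adult ventilation depended on scaling. With arrays centred on their own median, 22 of the 43 genes passed as higher and 0 as lower, and the median of the 43 went from 0.03 to 0.16. Centring raises every gene of the group by about 0.14 against control, and the share of all genes passing after it is not given here. Quantile normalization gave 2 higher and 3 lower. Rpl7 rose under each of the 3 scalings, and neither Rps10 (-0.03) nor Rps18 (-0.07) passed after centring. With a term for the Xist pattern only Rpl7 passed. Rps10 also did not pass without MV replicate 1 (-0.15, adjusted p = 0.0627) or 2 (-0.15, 0.0589), and Rps18 without MV replicate 1, 2 or 3 or control replicate 2, 3 or 4 (-0.19 to -0.22, adjusted p from 0.0768 to 0.107). The count was 7 without control replicate 1 and 2 without control replicate 2 or 4 or MV replicate 1.

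LPS alone in adults moved 5 of the 43 genes, or 4 of 42 without Rpl12, beside 36% of all genes (12.9% higher and 23% lower). The groups did not overlap for 7, beside 34.6%. Rps25 read 114, 164, 155 and 162 with LPS against 97.9, 65.8, 88.2 and 76.6 in controls. All LPS arrays lay above all controls, and the rise of 0.66 ± 0.089 (1.58-fold, adjusted p = 1.62e-06) was the largest of any member in any comparison between groups. Rpl12 rose from 18.9, 16.8, 21.5 and 16.0 to 29.2, 35.8, 36.2 and 35.5 (0.40 ± 0.073, adjusted p = 0.000127), with the limit of its dim probe set given above. Rps10 fell by 0.19 ± 0.055 (adjusted p = 0.00711), Rps18 fell by 0.21 ± 0.080 (adjusted p = 0.0396) and Rpl27 of the large subunit fell by 0.13 ± 0.052 (adjusted p = 0.0485). Rps18 did not pass without control replicate 2, 3 or 4 or LPS replicate 1, 2 or 3 (-0.16 to -0.22, adjusted p from 0.0559 to 0.139), nor Rpl27 without any 1 of the 4 controls or LPS replicate 1, 2 or 3 (-0.10 to -0.15, adjusted p from 0.0512 to 0.177). The count was 3 without control replicate 2, 3 or 4 or LPS replicate 2 or 3. Centring gave 4 higher and 0 lower, and quantile normalization 2 higher and 5 lower.

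LPS+MV in adults moved 6 of the 43 genes, 4 up and 2 down (3 up and 2 down without Rpl12), beside 42.1% of all genes (14.8% higher and 27.3% lower). The groups did not overlap for 10, beside 42.2%. Rps25 rose to 117, 129, 140 and 129 (0.50 ± 0.089, adjusted p = 5.59e-05) and Rps6 to 297, 333, 313 and 285 (0.25 ± 0.079, adjusted p = 0.0123), both above every adult control. Rpl7 rose to 5219, 5318, 5185 and 5254 (0.16 ± 0.054, adjusted p = 0.0164) and Rpl12 by 0.22 ± 0.073 (adjusted p = 0.0157). Rps10 fell by 0.19 ± 0.055 (adjusted p = 0.006), with all 4 arrays below the controls, and Rps18 fell by 0.21 ± 0.080 (adjusted p = 0.0369), with ranges that met at 4726.

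Rps25 and Rpl7 passed in adult LPS+MV in each of the 17 other settings. Rps6 did not pass without control replicate 3 (0.21, adjusted p = 0.0536), Rpl12 without LPS+MV replicate 4 (0.17, 0.0741), or Rps18 without control replicate 2, 3 or 4 or LPS+MV replicate 1, 3 or 4 (-0.18 to -0.21, adjusted p from 0.0627 to 0.109). With a term for the Xist pattern 3 genes passed as higher and none as lower. Centring gave 5 higher and 0 lower, and quantile normalization gave 4 of each.

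The 3 adult comparisons and the comparison of controls share the same 4 adult control arrays. Rps10 and Rps18 were lower in each treated adult group than in adult controls and higher in adult than in juvenile controls, and Rps25 had the opposite signs. All 4 comparisons of a gene therefore move together with those 4 arrays, and they are not independent. In intensity, the adult control mean was the highest of the 8 group means for Rps10 and Rps18 and the lowest for Rps25.

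**Figure D3:**
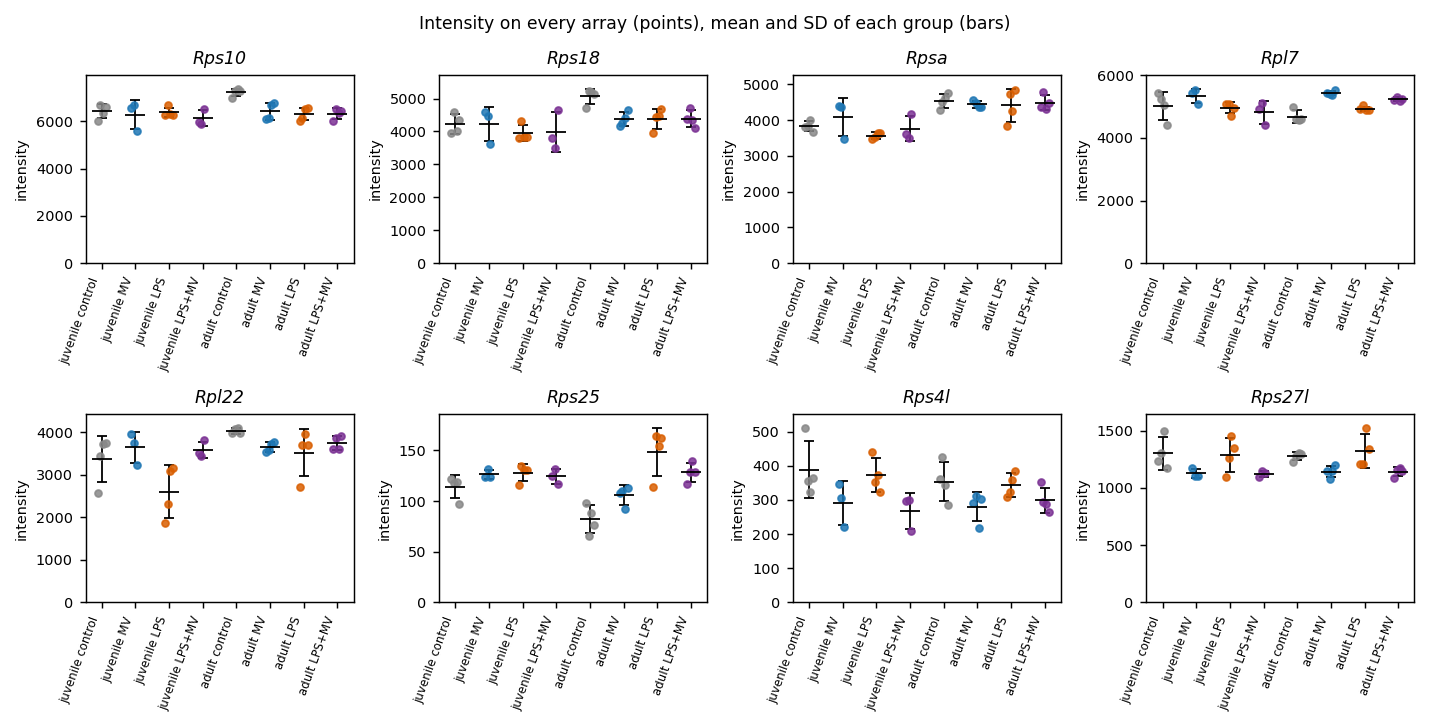
Intensity (linear axis from 0) of 8 ribosomal protein genes on every array, as points by group, with the mean and SD of each group as black bars. Adult controls stand highest for Rps10 and Rps18 and lowest for Rps25, the juvenile LPS group has the lowest mean for Rpl22, and the ventilated groups lie low for Rps4l and Rps27l.

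Adult LPS+MV against adult LPS gave no call among the 43 genes, beside 7.04% of all genes (3.69% higher and 3.35% lower), and 3 at an unadjusted p below 0.05 in limma. The groups did not overlap for 3, beside 16.4%. For the effect of age on each response, none of the 43 passed for MV, beside 6.13% of all genes, and none for LPS+MV, beside 2.1%. The unadjusted counts were 1 and 2. For LPS, 1 passed, beside 3.69%. That was Rps25, whose response to LPS was larger in adults by 0.53 ± 0.13 (95% interval 0.27 to 0.79, adjusted p = 0.0146). This difference uses the same 4 adult control arrays as the comparisons above, and the probe set of Rps25 is dim (median intensity 120). Its juvenile arrays read 122, 118, 119 and 97.3 in controls and 116, 134, 131 and 130 with LPS. It passed without any 1 of the 16 arrays, and the adjusted p was 0.0504 when only the 4 compared groups were fitted. Without adult control replicate 1 or juvenile control replicate 4, 1 and 2 genes passed for the interaction of age with LPS+MV.

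Of the listed paralogues, Rps27l and Rps4l were members that could be tested, while Rpl39l and Rpl3l were too dim. Rps27l, a p53-inducible paralogue of Rps27, read 1231, 1302, 1495 and 1171 in juvenile controls, 1173, 1101 and 1105 with MV, and 1094, 1149 and 1126 with LPS+MV. In adults it read 1229, 1275, 1302 and 1295 in controls, 1149, 1074, 1149 and 1198 with MV, and 1083, 1155, 1175 and 1151 with LPS+MV. The 4 differences from control were -0.20 ± 0.083 and -0.20 ± 0.083 in juvenile MV and LPS+MV and -0.16 ± 0.077 and -0.16 ± 0.077 in adult MV and LPS+MV. None passed (adjusted p = 0.13, 0.0686, 0.127 and 0.105). The adult ranges were separate from the control range in both ventilated groups. With LPS alone the differences were -0.01 in juveniles and 0.04 in adults.

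Rps4l gave differences of -0.38 ± 0.16 in juvenile MV (adjusted p = 0.111), -0.30 ± 0.14 in adult MV (0.114) and -0.21 ± 0.14 in adult LPS+MV (0.245), beside the fall in juvenile LPS+MV. With LPS alone they were -0.04 and -0.03. Paralogues and relatives outside the naming rule were looked at as well, of which Rps3a1 was added after the annotation was read. Rpl7l1, a nucleolar relative of Rpl7, rose with LPS in juveniles (0.27 ± 0.088, adjusted p = 0.0254) and adults (0.28 ± 0.088, 0.0134) and with LPS+MV in adults (0.53 ± 0.088, 2.5e-05). Fau, which encodes small-subunit protein eS30 fused to a ubiquitin-like part, was higher in adult than juvenile controls (0.39 ± 0.086, adjusted p = 0.00134). For Fau the effect of age on the response to MV was -0.42 ± 0.13 (adjusted p = 0.0435). Rps3a1 rose in adult MV (0.15 ± 0.054, adjusted p = 0.036), and Rpl22l1, the paralogue of Rpl22, did not pass in any comparison.

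Several genes are read by more than 1 probe set, 23 of the 46, which gives a check within the arrays. Of Rps10, all 5 kept probe sets were higher in adult controls, by 0.16 to 0.37, and all 5 passed when each probe set was tested on its own. In adult LPS+MV the 5 fell by 0.19 to 0.27. Of Rps18, the 3 probe sets with a suffix were higher in adult controls by 0.24 to 0.30 and passed, while the probe set without one gave 0.06 (adjusted p = 0.434). That probe set gave -0.034 to -0.004 in the 3 adult comparisons with control. It is dim, with a median intensity of 20.9, against 3754 to 4361 for the 3 with a suffix. It lay above the median of its own array on only 9 arrays. At this intensity, background and the constant added before the log can reduce differences. Whether they did so here was not tested, and this probe set does not decide the differences of Rps18. Of Rpl7, all 3 rose in adult MV, by 0.21 to 0.23. Of Rpl22, the 3 gave -0.20 to -0.39 in juvenile LPS and 1 passed. Probe sets of 1 gene share their sample and often part of their target, so they are not replicates.

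Counted by probe set, more features passed between the ages, but genes with several probe sets, such as Rps10 and Rps18, count more than once. These fits used the deposited scaling only, under which array medians were 0.048 higher in adult than in juvenile controls. Of the 85 kept probe sets of members, 25 were higher and 1 lower in adult controls, beside 21.7% of all 22170 probe sets with a single symbol (12.2% higher and 9.54% lower). In adult MV 6 were higher and 8 lower (beside 28.5%), in adult LPS 3 and 7 (beside 33%), and in adult LPS+MV 8 and 10 (beside 38.7%). In juveniles 1 was higher with MV (beside 10.2%), 1 higher and 1 lower with LPS (beside 19.9%) and 2 lower with LPS+MV (beside 28.4%). For LPS+MV against LPS, 5 passed in juveniles (beside 15%) and 1 in adults (beside 8.89%), and 1 passed for age by MV (beside 5.58%). A further 99 kept probe sets name a ribosomal protein gene together with other genes and lie outside the rule. Of these, 19 were higher and 2 lower in adult controls, with a median of 0.08. In adults 12 were higher and 3 lower with MV, 3 and 8 with LPS, and 7 and 11 with LPS+MV. In juveniles the counts were 2 and 1 with MV, 1 and 3 with LPS, and 0 and 10 with LPS+MV. The shares of all probe sets with a single symbol are those given above.

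Genes of neighbouring tasks were looked at as well, given here from lists written with the members. Of 20 translation factors and partners whose mRNAs mostly share the TOP motif, 0 rose and 5 (25%) fell with LPS in adults, beside 12.9% and 23% of all genes, and centring gave 3 of each (median 0.056). Those lower under the deposited scaling included Eif4b (-0.35 ± 0.061), a helper of the initiation helicase, Eif3f (-0.40 ± 0.088), a subunit of initiation factor 3, and Eef2 (-0.40 ± 0.12), the translocation factor. In juvenile MV 3 rose and 1 fell, beside 4.41% and 6.45% of all genes, with Hnrnpa1, an RNA-binding protein, at 0.45 ± 0.075 and Pabpc1, the poly(A)-binding protein, at -0.45 ± 0.088. In adult MV 4 rose and 4 fell, beside 7.17% and 24.3%, and after centring 11 rose and 0 fell.

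Of 36 genes for building ribosomes (RNA polymerase I, nucleolar and export factors, and Myc), 20 rose and 0 fell with LPS in juveniles, 15 and 0 with LPS+MV in juveniles, 26 and 0 with LPS in adults, and 27 and 0 with LPS+MV in adults. In the same order, 9.58%, 10.8%, 12.9% and 14.8% of all genes were higher. The list's medians were 0.25, 0.17, 0.38 and 0.41, where the medians of all genes lay between -0.05 and -0.03. Gnl3 (nucleostemin) rose by 0.71 ± 0.075 in juvenile LPS and 1.10 ± 0.075 in adult LPS, and by 1.52 ± 0.075 in adult LPS+MV. Tsr1, needed for small-subunit maturation, rose by 0.83 ± 0.080 in juvenile LPS. Nop58, of the box C/D particles that modify ribosomal RNA, rose by 1.70 ± 0.13 in adult LPS+MV. Ventilation alone gave 1 up and 4 down in juveniles (beside 4.41% and 6.45%) and 7 up and 3 down in adults (beside 7.17% and 24.3%), where centring gave 18 and 1, quantile normalization 15 and 2 and the Xist term 5 and 1. The LPS groups kept their direction under quantile normalization, centring and the Xist term. Of 18 regulators of translation, 3 rose and 2 fell in juvenile LPS (beside 9.58% and 13.3% of all genes), and 2 and 4 in juvenile LPS+MV (beside 10.8% and 20.5%). In adults 3 rose and 5 fell with MV (beside 7.17% and 24.3%), 5 and 4 with LPS (beside 12.9% and 23%) and 5 and 7 with LPS+MV (beside 14.8% and 27.3%). Centring turned the adult counts to 5 and 2, 5 and 2, and 5 and 5, and the Xist term gave 5 and 1 in adult LPS+MV. Among them Larp1, which binds the TOP motif, rose in juvenile LPS (0.30 ± 0.062), juvenile LPS+MV (0.48 ± 0.067), adult LPS (0.23 ± 0.062) and adult LPS+MV (0.41 ± 0.062).

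The mitochondrial ribosome makes the proteins encoded in mitochondrial DNA, and part of its genes passed as lower in the ventilated juveniles. Of 76 tested, 28 fell and 4 rose in juvenile MV (median -0.23), 46 fell and 1 rose in juvenile LPS+MV (median -0.31), and 6 fell and 4 rose with LPS alone (median -0.04). Beside these stand 6.45%, 20.5% and 13.3% of all genes that fell. Mrpl40, a large-subunit protein, gave -0.50 ± 0.095 in juvenile MV and -0.70 ± 0.095 in juvenile LPS+MV. In adult MV 27 (beside 24.3% of all genes) fell and 1 rose (median -0.12), but centring gave 14 and 10 (median 0.02), quantile normalization 15 and 5, and the Xist term 12 and 0. In adult LPS+MV 29 (beside 27.3%) fell and 7 rose (median -0.10), and centring gave 27 and 13 (median -0.041). With LPS alone in adults 12 fell and 7 rose (median -0.028), and centring gave 6 and 18 (median 0.038). Mrps18b rose with LPS by 0.55 ± 0.070 in juveniles and 0.54 ± 0.070 in adults.

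**Figure D4:**
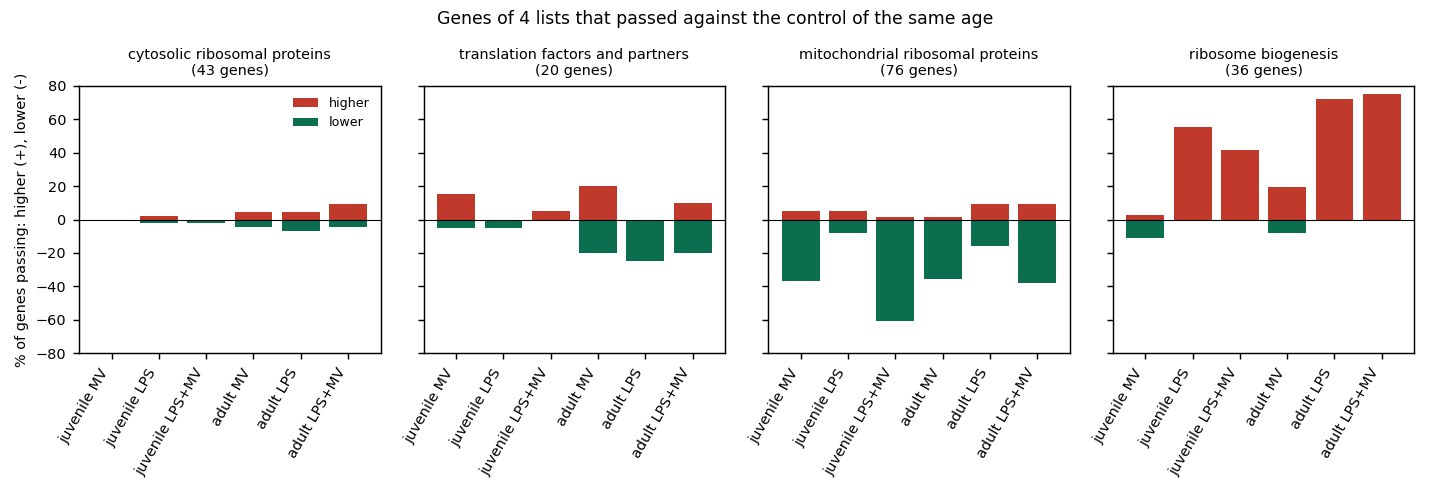
Percent of genes in 4 lists that passed against the control of the same age, higher as upward and lower as downward bars, for 6 treated groups. At most 4 of the 43 cytosolic ribosomal protein genes pass in either direction, while genes for building ribosomes rise with LPS (26 of 36 in adults), and mitochondrial ribosomal protein genes fall with ventilation in juveniles (46 of 76 with LPS+MV).

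Marker mRNAs of several cell types also differed from control in the treated groups; shares of cells were not measured. Neutrophil markers rose in juvenile LPS+MV (9 of 9, median 1.53), adult LPS (6 of 9, median 1.15), juvenile LPS and adult LPS+MV (3 each) and juvenile MV (2), and in adult MV 1 rose and 1 fell. Lymphocyte markers fell in adult LPS+MV (5 of 10, median -0.21), adult MV (4, median -0.19), adult LPS (2) and juvenile LPS+MV (1). Red cell markers fell in adult MV (5 of 6, median -1.04, with 1 higher), adult LPS+MV (5, median -0.91), juvenile MV (4, median -1.02) and juvenile LPS+MV (1). Proliferation markers fell in juvenile LPS (10 of 10, median -1.20), juvenile LPS+MV (8, median -0.88) and in 2 of 10 in juvenile MV, adult LPS and adult LPS+MV, while 1 rose in adult MV. Of 10 lung markers, 4 fell in adult MV and 5 each in adult LPS and adult LPS+MV, with 1 higher in each; Ager gave -0.60, -0.35 and -0.63. In juveniles 1 of the 10 passed in each treated group. None of 10 cardiac muscle markers passed in these comparisons. The medians of the 43 ribosomal protein genes lay between -0.05 and 0.04 in the 6 comparisons with control under the deposited scaling, and at 0.16 in adult MV after centring. The part of the markers' shifts in single genes was not tested.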

How the data were processed

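RNA of 30 whole lungs was measured on Affymetrix mouse expression arrays. Per the deposited table, the values are linear probe set intensity that the authors normalized between arrays; the method is not given in the sources used here. MAS5 is the only tool in the submitters' processing notes, and the values lack its usual low tail, so the summary algorithm is not settled. It bears most on dim genes, and background is part of the intensities. The number of arrays limits the precision.

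Names came from the platform annotation (34945 probe sets with 1 symbol, 932 with several, 9160 with none), and all 46 member identifiers were found in RefSeq. Probe sets above the median of their own array on at least 3 arrays were kept (24825). A gene's brightest probe set was fitted as log2(intensity + 32) with limma 3.58.1 under R 4.3.3 (lmFit and eBayes, intensity trend on). The model had 1 mean for each of the 8 groups, with 22 residual degrees of freedom and 4.87 from the prior. Within each of the 12 comparisons, two-sided p-values were corrected by Benjamini-Hochberg and called at 0.05. The model was tested on simulated data. Replicates are separate animals, and no 2 arrays were identical. Figures were drawn with matplotlib 3.10.9.

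The members and gene lists were chosen with earlier results of these data known. Named genes are, in each comparison, up to 5 highest and 5 lowest members that passed (between the controls Rps10 and Rps15 were added after their values were seen), the listed paralogues, the 3 brightest members, and up to 4 of each other list by p. Further list members appear with values only. The bound of 0.5, the intensity limits of 1000 and 500, the promoters shown and the fit of single probe sets were chosen after the data were seen. Alternatives were quantile normalization, median centring, no filter, probe sets without a suffix, a pseudocount of 1, the mean over probe sets, only the compared groups, a replicate block, an Xist term, and each array left out in turn. Sex, litter and batch were not used.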

Additional observations from a re-analysis of the deposited data

Results flagged for a closer look

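Within groups of 4 animals, 1 array stood apart from the other 3 in 10 of 102 checks over 17 genes, where chance gives about 1 in 20. Rpl12 was 39.6 on juvenile LPS replicate 3 (others 27.1 to 28.1) and 29.2 on adult LPS replicate 1 (others 35.5 to 36.2). Rpl37a was 9938 on adult control replicate 1 (others 8548 to 8597) and 9190 on adult MV replicate 1 (others 9949 to 10003). Rpl7 was 4973 on adult control replicate 1 (others 4562 to 4602), and Rplp2 was 6149 on adult MV replicate 4 (others 5696 to 5720). Rps10 was 6676 (others 6259 to 6317) and Rps18 was 4318 (others 3802 to 3842) on juvenile LPS replicate 2. Rps15 was 4556 (others 5011 to 5091) on juvenile control replicate 1. Rps25 was 97.3 (others 118 to 122) on juvenile control replicate 4.

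The response of Rps25 to LPS differed between the ages by 0.529 on the log2 scale in the interaction test of limma (adjusted p = 0.0146). It uses the same adult control arrays as the other adult comparisons of Rps25, and the probe set is dim.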

How the results depend on the processing

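The counts of ribosomal protein genes that passed are given here where another setting moved them by more than 1.5 times. Centring arrays on their median gave 22 in adult MV and 5 between the controls, and the members' median in adult MV became 0.16. Quantile normalization gave 2 in juvenile LPS+MV against control and 2 against LPS. The mean over probe sets gave 13 between the controls, 1 in juvenile MV and 2 in juvenile LPS+MV. Probe sets without a suffix gave 1 in juvenile LPS, 0 in juvenile LPS+MV against LPS and 1 in adult LPS+MV against LPS. Fitting only the compared groups gave 5 between the controls, 1 in juvenile LPS, 0 in juvenile LPS+MV against control, 0 against LPS, 1 in adult LPS+MV against LPS and 0 for age by LPS. The Xist term gave 0 in juvenile LPS+MV, 1 in adult MV and 3 in adult LPS+MV. Single probe sets, a setting added after the data were seen, gave 26 of 85 between the controls, 1 in juvenile MV, 2 in juvenile LPS+MV, 5 in juvenile LPS+MV against LPS, 14 in adult MV, 10 in adult LPS, 18 in adult LPS+MV, 1 in adult LPS+MV against LPS and 1 for age by MV; that table holds more features per gene.

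With 1 array left out, the counts ran from 5 to 10 between the controls, 0 to 3 in juvenile MV, 1 to 2 in juvenile LPS, 0 to 2 in juvenile LPS+MV, 0 to 2 in juvenile LPS+MV against LPS, 2 to 7 in adult MV, 3 to 5 in adult LPS, 4 to 8 in adult LPS+MV and 0 to 2 for age by LPS+MV. They stayed at 0 in adult LPS+MV against LPS and for age by MV, and at 1 for age by LPS. Of the 28 single calls, 9 passed in every setting run, 19 were lost in at least 1 and 0 changed sign; beyond those with fewer arrays, the cause was not tested.

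Deviations of same-numbered arrays correlated between -0.217 and 0.257, and the main fit did not pair them. Differently numbered arrays were not compared, so these values cannot show whether equal numbers share a litter or batch. The fit with the replicate block gave 1 in juvenile MV, 2 in juvenile LPS+MV and 3 in juvenile LPS+MV against LPS, and moved no other count by over 1.5 times. With 3 or 4 animals a group, differences near the median SE of 0.059 cannot be told from spread, and 9 dim probe sets lie where background weighs most.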
